A study of Mus musculus with 2 samples.

Results

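Chemokine receptors on tumor-infiltrating T cells were examined through 9 genes, *Ccr2*, *Ccr3*, *Ccr4*, *Ccr7*, *Ccr8*, *Cxcr3*, *Cxcr4*, *Cxcr6* and *Cx3cr1*, of the 31053 mouse genes in the expression table. The 9 were chosen by name, with earlier results of these data known. Each was followed across T cell lineages defined by the cells' own RNA. Counts of these genes set beside shares of all genes are therefore descriptions only. The study asked how interleukin-33 (IL-33) shapes T cells in melanoma. TCR-β+ T cells were sorted from tumors of B16, a mouse melanoma line of C57BL/6 origin, and of B16-IL33, the same line engineered to secrete IL-33, on day 9 after injection of 100000 tumor cells into mice. Cells carried antibody hashtags named for the tumors, were mixed into 1 pool and were read as 3 libraries, for gene expression, hashtags and TCR chains. All cells therefore come from 1 pool and carry no further treatment, and how many mice stand behind a hashtag is not given in the sources used here.

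Chemokine receptors are G protein–coupled receptors that steer cells along gradients of small secreted proteins, the chemokines. Naive T cells use one set of receptors to enter lymph nodes, whereas activated and regulatory T cells carry others that read chemokines made in inflamed tissue and tumors. Lineages differ in the receptors they carry, and receptor genes of the CC family lie in clusters in the genome.

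Of 14035 cell barcodes, 9078 passed the filters of 200 to 2500 detected genes and under 5% mitochondrial transcripts, with a median of 2467 unique molecular identifiers (UMIs, counts of single captured transcripts) and a range of 254 to 14063. The 4 groups held 5698 of these cells. CD8+ T cells (more *Cd8a* and *Cd8b1* than *Cd4* and *Foxp3* UMIs) numbered 1260, with a median of 3462.5 UMIs. Treg cells (a *Foxp3* UMI and no CD8 UMI) numbered 2609, with a median of 2780. Tconv cells (a *Cd4* UMI, no *Foxp3* or CD8 UMI) numbered 1769, with a median of 2498, and 81 cells held a *Zbtb16* UMI without *Foxp3* or CD8, with a median of 2939. The other 3380 kept cells fell in no group, and their median was 2006 UMIs.

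The labelled cell type was checked against its markers. Each of the CD3 genes *Cd3d*, *Cd3e* and *Cd3g* was found in between 81.5% and 91.4% of the cells of every group. *Zbtb16* encodes PLZF, a factor of NKT cells. Of the 60 *Zbtb16*-positive cells with a TCR barcode, 16 carried the invariant Trav11–Traj18 alpha chain of those cells and 11 another productive alpha chain. The rest had no productive alpha chain, so whether they carry the invariant one is not known. The group is therefore named here by its rule. Of the 81 cells, 21 also met the Tconv rule and were taken out of Tconv when both groups were compared. Macrophage and monocyte RNA was present at similar sums in the groups, between 195 and 198 CPM (a gene's UMIs per 1000000 UMIs of the group) in CD8+, Treg and Tconv cells and 262 CPM in *Zbtb16*-positive cells for the 7 genes of the list other than *Ly6c2* and *Fcer1g*. *C1qb*, *C1qc* and *Adgre1* were at 0 in the last group. *Ly6c2* alone was in 66.7% of CD8+ T cells. The gene expression barcodes shared 11756 with the hashtag library and 6665 with the TCR library.

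There is 1 pool, and whether the 2 tags of a tumor are replicates is not given in the sources used here, so no test was run and the tags are given side by side. Intervals are 95% and cover counting error only, exact Poisson for a CPM, exact Clopper-Pearson for a share of cells and exact conditional binomial for a ratio of 2 CPM values. Shares of cells with a UMI are given at an equal depth of 1500 UMIs per cell, shallower cells left out (109 CD8+, 454 Treg, 322 Tconv and 2 *Zbtb16*-positive cells), with the share at full depth beside them. A share given alone, as for marker and partner genes, is at full depth unless stated. A gene was counted as higher or lower past 2-fold if it had at least 50 UMIs in both groups together. The counts are of 5′ ends, so levels are compared between groups for 1 gene and not between genes.

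Of the 9 genes, 6 lie on mouse chromosome 9, with 1 each on chromosomes 1, 11 and X (GENCODE vM21, GRCm38). *Ccr3* and *Ccr2* are neighbours 70.26 kb apart, and *Cx3cr1* and *Ccr8* lie 22.234 kb apart, with 0 protein-coding genes between the members of either pair. The gene span of *Cx3cr1* overlaps *Csrnp1*, *Gorasp1* and *Xirp1* on the same strand, and that of *Cxcr6* overlaps *Fyco1* on the other strand. Whether exons overlap too, and whether this affects the counts of these genes, was not tested.

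The 4 upstream windows shown are those of *Ccr3*, *Ccr4* and *Ccr8*, which were low in CD8+ T cells, and that of *Cxcr6*, which was highest there. RefSeq promoter sequences (GRCm38.p6) matched 8 of the 9 genes, and each window is the 250 bases before the RefSeq start, in the direction of the gene. The windows are chr9:124021721-124021970 on the plus strand for *Ccr3*, chr9:114496545-114496794 on the minus strand for *Ccr4*, chr9:120091883-120092132 on the plus strand for *Ccr8* and chr9:123806227-123806476 on the plus strand for *Cxcr6*. They hold 0, 18, 19 and 2 bases of GENCODE exons of these genes, and the window of *Ccr4* lies wholly within the span of a longer transcript of that gene. Capitals mark matches to the motifs named after the sequences.
Ccr3: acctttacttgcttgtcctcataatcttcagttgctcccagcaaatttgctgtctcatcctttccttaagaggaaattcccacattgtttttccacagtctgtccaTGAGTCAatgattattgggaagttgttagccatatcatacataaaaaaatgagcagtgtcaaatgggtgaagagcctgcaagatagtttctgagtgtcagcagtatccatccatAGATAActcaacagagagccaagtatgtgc
Ccr4: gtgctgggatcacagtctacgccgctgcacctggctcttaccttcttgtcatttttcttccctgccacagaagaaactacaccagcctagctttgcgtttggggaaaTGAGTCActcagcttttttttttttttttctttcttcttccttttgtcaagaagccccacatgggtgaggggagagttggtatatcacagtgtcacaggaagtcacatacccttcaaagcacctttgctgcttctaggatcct
Ccr8: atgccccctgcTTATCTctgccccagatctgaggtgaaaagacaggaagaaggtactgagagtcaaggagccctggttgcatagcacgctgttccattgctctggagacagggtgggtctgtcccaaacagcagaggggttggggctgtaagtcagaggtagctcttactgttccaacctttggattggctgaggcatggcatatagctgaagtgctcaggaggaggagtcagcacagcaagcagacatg
Cxcr6: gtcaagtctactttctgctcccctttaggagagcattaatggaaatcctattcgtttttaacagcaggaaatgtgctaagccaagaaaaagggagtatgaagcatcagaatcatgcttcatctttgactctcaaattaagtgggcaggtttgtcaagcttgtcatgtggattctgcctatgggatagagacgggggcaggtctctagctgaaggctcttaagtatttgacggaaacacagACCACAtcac

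The motifs were searched on both strands, and none of them contains another. The AP-1 motif TGANTCA, found in 6.75% of 32851 RefSeq windows of the same length, was in the windows of *Ccr3* and *Ccr4*. The GATA motif AGATAA, found in 9.99% of windows, was in those of *Ccr2*, *Ccr3* and *Ccr8*, the first with 233 of its 250 bases in GENCODE exons. The Runx motif TGTGGT, in 14% of windows, was in those of *Cxcr3*, *Cxcr6* and *Cx3cr1*, with 122, 2 and 250 exonic bases. The T-box motif AGGTGTGA, in 1.12%, and the forkhead motif TGTTTAC, in 3.17%, had no match in the 8 windows. A match is a description of letters, not of a bound site.

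Among the 9 receptors, 4 had their highest CPM in Treg cells, *Ccr2*, *Ccr3*, *Ccr4* and *Ccr8*. *Ccr2* (ENSMUSG00000049103, chromosome 9, 124101950 to 124113557) encodes the receptor for Ccl2, Ccl7 and Ccl12. It stood at 621 CPM (604 to 638) in Treg cells, 225 CPM (212 to 239) in Tconv cells, 162 CPM (118 to 216) in *Zbtb16*-positive cells, with 156 CPM (145 to 167) among CD8+ T cells. Treg cells were above all others, and the last 2 groups could not be told apart. At equal depth 51.2% of Treg cells (67.1% at full depth) held a *Ccr2* UMI, against 18.8% of Tconv cells (29.5%) and 19.4% of CD8+ T cells (34.0%).

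*Ccr3* (ENSMUSG00000035448, chromosome 9, 124021972 to 124031689) encodes the eotaxin receptor, known best from eosinophils. It stood at 32.6 CPM (28.8 to 36.7) in Treg cells, 5.78 CPM (3.87 to 8.30) in Tconv cells, with 2.97 CPM (1.66 to 4.90) among CD8+ T cells. *Zbtb16*-positive cells held none, and 0 of 81 cells allows up to 10.8 CPM and a share of up to 3.70% by a floor of 3 counts, or 13.3 CPM and 4.45% by the exact intervals. At equal depth 4.58% of Treg cells (7.47% at full depth) held a *Ccr3* UMI, so most cells of the group with the highest level had none.

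*Ccr4* (ENSMUSG00000047898, chromosome 9, 114490316 to 114504916) encodes the receptor for Ccl17 and Ccl22. Its level was 29.2 CPM (25.6 to 33.1) in Treg cells, 22.3 CPM (18.4 to 26.8) in Tconv cells, 14.4 CPM (3.92 to 36.8) in *Zbtb16*-positive cells, with 3.17 CPM (1.81 to 5.14) among CD8+ T cells. CD8+ T cells were below every other group, and the interval of *Zbtb16*-positive cells, from 4 UMIs, spanned both Treg and Tconv cells. *Ccr8* (ENSMUSG00000042262, chromosome 9, 120092114 to 120094906), which encodes the receptor for Ccl1 and Ccl8 and is known from tumor Treg cells, stood at 189 CPM (179 to 198) in Treg cells, 64.3 CPM (57.5 to 71.7) in Tconv cells, 32.3 CPM (14.8 to 61.4) in *Zbtb16*-positive cells, with 21.6 CPM (17.7 to 26.0) among CD8+ T cells. Its share at equal depth was 20.2% of Treg cells (31.6% at full depth), 6.26% of Tconv cells (11.5%) and 2.62% of CD8+ T cells (5.87%).

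*Ccr7* (ENSMUSG00000037944, chromosome 11, 99144196 to 99155077) encodes the receptor for Ccl19 and Ccl21 through which naive and central memory T cells enter lymph nodes. It was the only member with its highest level in Tconv cells clearly above the next group. Tconv cells held 116 CPM (107 to 126), CD8+ T cells 73.4 CPM (66.1 to 81.3), Treg cells 49.7 CPM (45.0 to 54.8) and *Zbtb16*-positive cells 39.5 CPM (19.7 to 70.7). The last 2 groups could not be told apart. The share with a UMI at equal depth was 13.4% of Tconv cells (17.5% at full depth), 8.38% of CD8+ T cells (15.0%) and 4.64% of Treg cells (7.28%).

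*Cxcr3* (ENSMUSG00000050232, chromosome X, 101731535 to 101734269) encodes the receptor for the interferon-induced chemokines Cxcl9 and Cxcl10. Its levels lay close together, at 154 CPM (143 to 165) in Tconv, 146 CPM (138 to 155) in Treg, 144 CPM (103 to 196) in *Zbtb16*-positive and 106 CPM (97.1 to 115) in CD8+ T cells. No 2 neighbours in that order differed beyond counting error, although CD8+ T cells were below Tconv and Treg cells. *Cxcr4* (ENSMUSG00000045382, chromosome 1, 128588199 to 128592293), whose product binds Cxcl12, was similar in Tconv cells at 102 CPM (93.5 to 111), *Zbtb16*-positive cells at 101 CPM (66.9 to 145) and Treg cells at 97.9 CPM (91.3 to 105), and lower in CD8+ T cells at 64.1 CPM (57.3 to 71.5). At equal depth 12% of Treg, 12.3% of Tconv and 9.34% of CD8+ T cells held a *Cxcr4* UMI (20.3%, 19.3% and 18.3% at full depth).

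*Cxcr6* (ENSMUSG00000048521, chromosome 9, 123806475 to 123811760) encodes the receptor for Cxcl16 and is known from tissue-resident and effector T cells. It stood at 283 CPM (268 to 298) in CD8+ T cells, 259 CPM (202 to 326) in *Zbtb16*-positive cells, 188 CPM (177 to 201) in Tconv cells and 123 CPM (115 to 130) in Treg cells. CD8+ and *Zbtb16*-positive cells could not be told apart, and Treg cells were lowest. *Cx3cr1* (ENSMUSG00000052336, chromosome 9, 119901616 to 120069879), whose product binds fractalkine and marks circulating cytotoxic T cells, stood at 34.0 CPM (29.1 to 39.5) in CD8+, 13.1 CPM (10.7 to 15.8) in Treg and 8.96 CPM (6.54 to 12) in Tconv cells. *Zbtb16*-positive cells held none, which again allows up to 10.8 CPM. At equal depth 28.9% of CD8+ T cells (45.7% at full depth) held a *Cxcr6* UMI and 5.27% (9.60%) a *Cx3cr1* UMI.

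**Figure D1:**
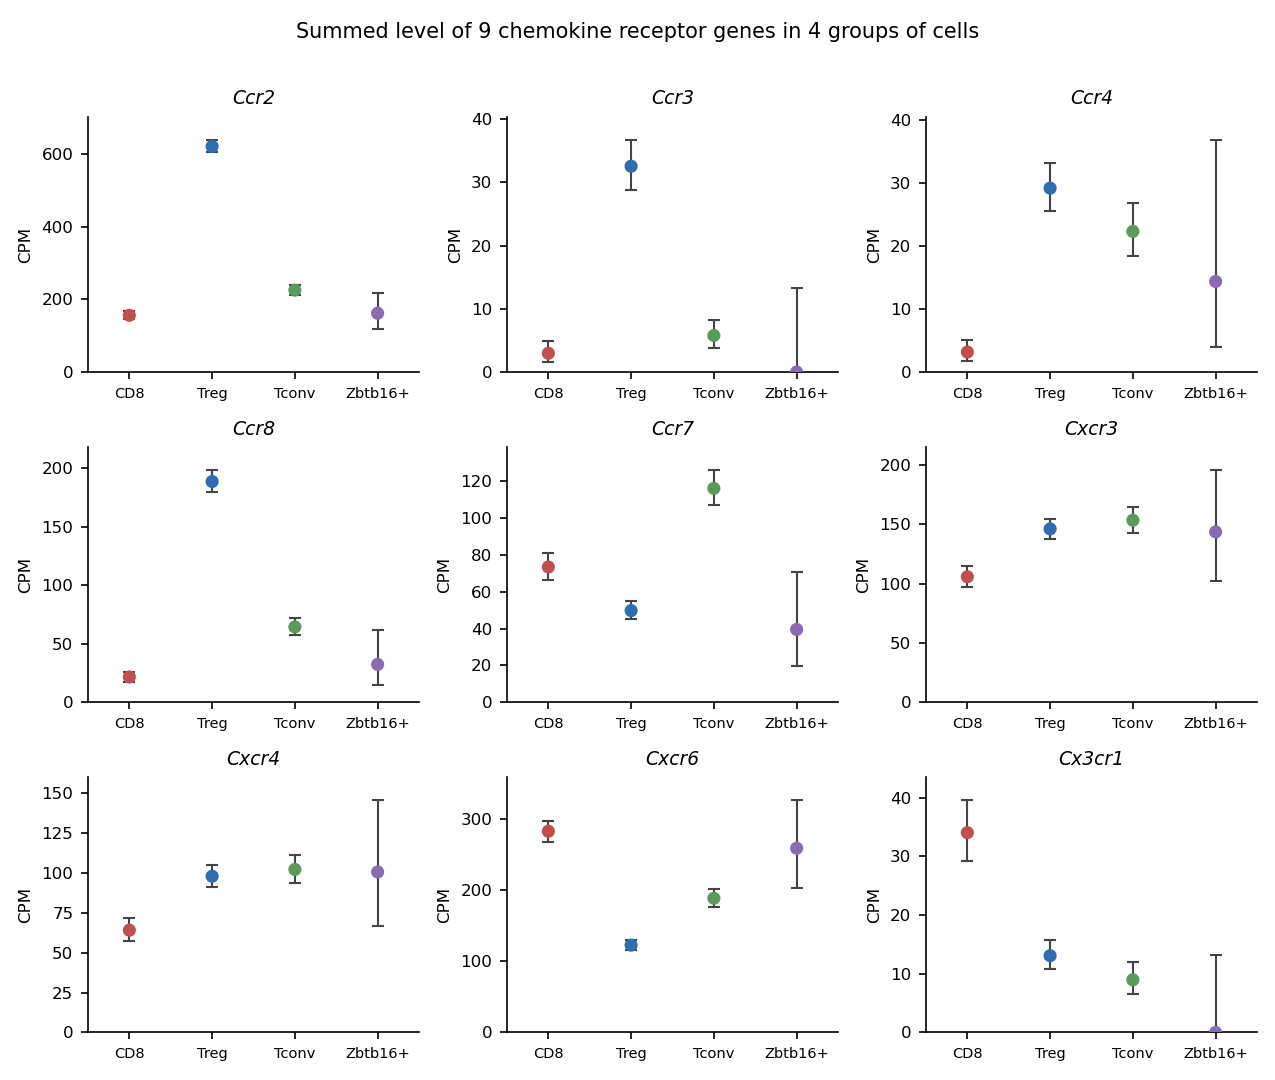
Level of each receptor gene in CPM (linear axes from 0, 1 panel per gene) in CD8+, Treg, Tconv and *Zbtb16*-positive cells, with exact Poisson 95% intervals that cover counting error only. *Ccr2*, *Ccr3* and *Ccr8* stand apart in Treg cells, *Ccr7* is highest in Tconv cells at 116 CPM, and *Cxcr6* and *Cx3cr1* are highest in CD8+ T cells at 283 and 34.0 CPM.

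Free RNA gives UMIs in droplets whose cells do not express a gene. The 223 kept cells with at least 5 macrophage or monocyte marker UMIs and no CD3 UMI, with a median of 3393 UMIs, served as reference for the receptors that such cells should lack. The rule of no CD3 UMI also leaves out droplets with free CD3 RNA, so the reference can understate free RNA of T cells. By how much was not tested. *Ccr3* and *Ccr4* were in 0 of the 223, which allows a share of up to 1.35%, *Cxcr3* was in 0.897%, and *Ccr8* and *Cxcr6* were each in 2.69% at full depth. The shares of *Ccr3* (0.952%) and *Ccr4* (1.11%) in CD8+ T cells lie under what 0 of 223 allows. Their levels of 2.97 and 3.17 CPM likewise lie under the 3.49 CPM allowed. With 0 UMIs of both genes, the reference cells cannot separate such counts from free RNA, and their source was not tested. The share of *Ccr3* in Tconv cells (1.24%) lies under the limit of 1.35% too, but its level of 5.78 CPM lies above 3.49 CPM, and no reading is made of it. *Ccr8* in CD8+ T cells was above its reference by level, at 21.6 CPM against 6.98 CPM (2.56 to 15.2), whereas the shares at equal depth, 2.62% (1.77% to 3.71%) and 1.11% (0.122% to 4.08%), had overlapping intervals. Given the rule of no CD3 UMI, free RNA was not separated from expression here either. *Ccr2*, *Cxcr4* and *Cx3cr1* were in 34.5%, 26.5% and 8.52% of the reference cells, which are known to express them, and *Ccr7* was in 6 of them with 47 UMIs, so these cells give no background for those genes.

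Treg and Tconv cells, both of the CD4 lineage, differed past 2-fold in 4 of 9 receptors. *Ccr3*, *Ccr8* and *Ccr2* were higher in Treg cells, whereas 4.4% of 9280 genes were. *Ccr7* was lower, against 2.08% of genes. The CPM ratio of Treg over Tconv cells was 5.64 (3.84 to 8.58) for *Ccr3*, 2.93 (2.60 to 3.32) for *Ccr8*, 2.76 (2.58 to 2.94) for *Ccr2* and 0.43 (0.38 to 0.49) for *Ccr7*. The other 5 were within 2-fold, from 0.65 (0.59 to 0.71) for *Cxcr6* to 1.46 (1.02 to 2.11) for *Cx3cr1*. *Cxcr3*, at 0.95 (0.87 to 1.04), and *Cxcr4*, at 0.96 (0.86 to 1.07), did not differ beyond counting error, with narrow intervals. The median ratio of the 9 was 1.31, beside 1.07 for all genes.

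These ratios depended on which CD4+ cells counted as Tconv. Of the 1769 Tconv cells, 697 held a UMI of *Il2ra* or *Ikzf2*, which encode the IL-2 receptor alpha chain and Helios and are high in Treg cells, at 452 and 859 CPM. These 697 cells held 365 CPM of *Ccr2*, 121 CPM of *Ccr8* and 12.4 CPM of *Ccr3*. The 1072 without such a UMI held 131, 26.3 and 1.33 CPM, the last from 4 UMIs. *Ccr7* went the other way, at 73.4 CPM in the former and 145 CPM in the latter. Against these 1072 cells the Treg ratio was 4.72 for *Ccr2*, 7.18 for *Ccr8*, 24.5 for *Ccr3* and 0.34 for *Ccr7*, where the level of *Ccr3* in these cells lies under the 3.49 CPM that the macrophage-marker cells allow. Over 12 alternative settings the ratio stayed past 2-fold in the same direction for all 4 genes. The part of cells with undetected *Foxp3* in the main ratios was not tested.

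CD8+ T cells were the other pole for the same genes. Against Treg cells, *Ccr3*, *Ccr4*, *Ccr8* and *Ccr2* were lower past 2-fold, with ratios of 0.09 (0.05 to 0.15), 0.11 (0.06 to 0.18), 0.11 (0.09 to 0.14) and 0.25 (0.23 to 0.27). The counts of *Ccr3* and *Ccr4* in CD8+ T cells are those under what the macrophage-marker cells allow, so free RNA was not separated from expression in these ratios. Of 9288 genes 9.53% were lower to that extent. *Cx3cr1*, at 2.60 (2.04 to 3.34), and *Cxcr6*, at 2.30 (2.13 to 2.50), were higher, as were 2.79% of genes. *Ccr7* was at 1.48 (1.28 to 1.70), *Cxcr3* at 0.72 (0.65 to 0.80) and *Cxcr4* at 0.65 (0.57 to 0.75). With no upper limit on detected genes *Ccr7* turned to 0.94, and without cells of 2 or more marker UMIs of other cell types, *Ly6c2* and *Fcer1g* among them, it was at 2.66, *Cx3cr1* at 1.55 and *Cxcr6* at 1.91. The latter setting kept 460 of 1260 CD8+ T cells.

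Against Tconv cells, which also serve as reference for Treg cells above, CD8+ T cells had more *Cx3cr1*, with a ratio of 3.8 (2.72 to 5.40) where 2.05% of 8652 genes were higher past 2-fold. *Ccr4*, at 0.14 (0.08 to 0.24), and *Ccr8*, at 0.34 (0.27 to 0.42), were lower, beside 3.27% of genes. The *Ccr4* level in CD8+ T cells is again the one under what the macrophage-marker cells allow. *Cxcr6* was 1.5-fold higher (1.38 to 1.63), and *Ccr2*, *Ccr7*, *Cxcr3* and *Cxcr4* lay between 0.63 and 0.69. *Ccr3* had under 50 UMIs in both groups. Against the 1072 Tconv cells without *Il2ra* or *Ikzf2*, *Ccr8* was no longer past 2-fold at 0.82 and *Ccr2* turned to 1.19. The median ratio was 0.66 for 8 receptors and 0.92 for all genes.

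**Figure D2:**
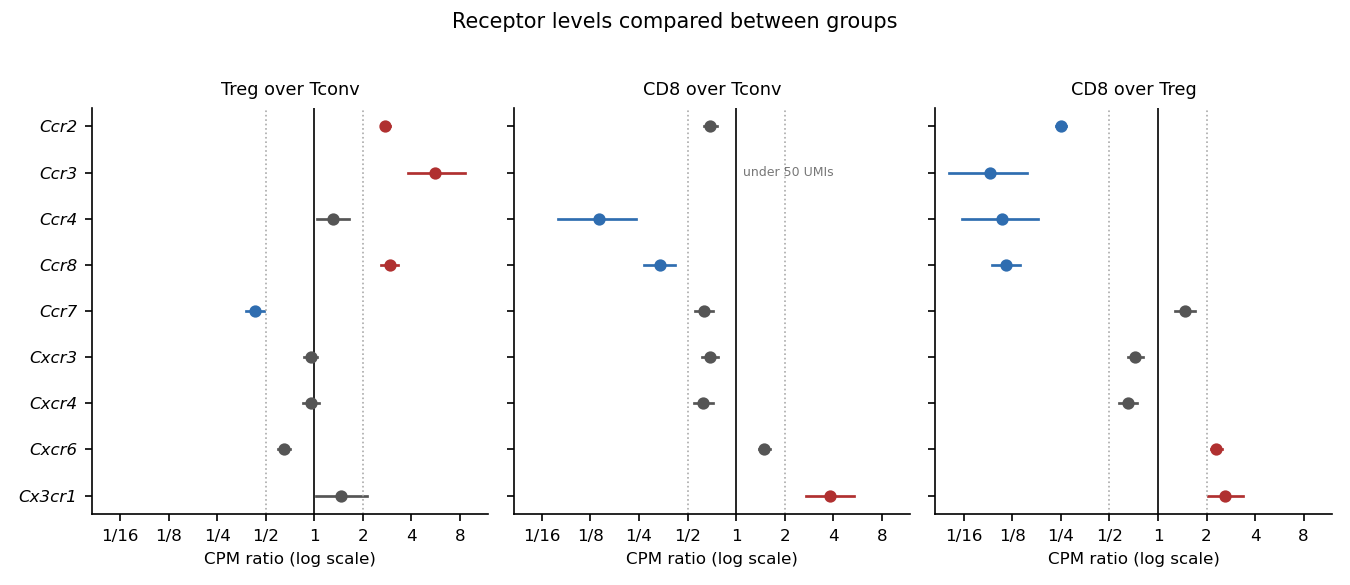
CPM ratio of each receptor gene (log axis, line at 1, dotted lines at 2-fold) for Treg over Tconv, CD8 over Tconv and CD8 over Treg cells, with exact conditional binomial 95% intervals. Red and blue points are past 2-fold, such as *Ccr3* at 5.64 in Treg over Tconv cells and *Ccr8* at 0.11 in CD8 over Treg cells, and grey text marks a gene with under 50 UMIs in both groups together.

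The 81 *Zbtb16*-positive cells had 2 receptors past 2-fold lower than Tconv cells, beside 11.3% of 7200 genes, and 0 higher, beside 3.35%. *Ccr7* was at 0.34 (0.17 to 0.61) and *Ccr8*, from 9 UMIs, at 0.50 (0.22 to 0.95). *Cxcr6* was 1.38-fold higher (1.07 to 1.75), and *Cxcr3* and *Cxcr4* were at 0.94 (0.66 to 1.29) and 0.99 (0.65 to 1.45). The call for *Ccr8* did not hold under 7 of 12 alternatives, and against Tconv cells without *Il2ra* or *Ikzf2* its ratio was 1.21. In the 16 cells with the invariant chain, *Cxcr6* stood at 164 CPM (78.4 to 301), *Ccr8* at 98.2 CPM (36.0 to 214) and *Ccr2* at 81.8 CPM (26.6 to 191). With these cells alone *Cxcr6* turned to a ratio of 0.87 and *Ccr8* to 1.51, from 10 and 6 UMIs.

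*Il1rl1* encodes the IL-33 receptor, also called ST2. Treg cells with an *Il1rl1* UMI numbered 504 and those without 2105, with medians of 2850 and 2772 UMIs. *Ccr3* stood at 79.4 CPM (66.3 to 94.2) in the former and 21.0 CPM (17.6 to 24.8) in the latter, 3.78-fold higher (2.95 to 4.84). *Ccr4* was 2.09-fold higher (1.58 to 2.74), at 50.1 CPM (39.8 to 62.1) against 24 CPM (20.4 to 28). These 2 of 9 receptors were past 2-fold higher, as were 0.788% of 8380 genes, and 0 were lower, beside 2.43%.

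*Cxcr3* went the other way, at 89.1 CPM (75.3 to 105) with and 160 CPM (151 to 170) without *Il1rl1*, a ratio of 0.56 (0.46 to 0.66). *Cxcr4* was higher with *Il1rl1*, at 138 CPM (121 to 157) against 88.0 CPM (81.0 to 95.4), a ratio of 1.57 (1.34 to 1.83). *Ccr2* and *Cxcr6* were modestly higher, with ratios of 1.25 (1.17 to 1.34) and 1.21 (1.05 to 1.41). *Ccr8* did not separate the 2 sets, at 197 and 187 CPM with a ratio of 1.06 (0.93 to 1.20), and neither did *Ccr7* at 0.84 (0.64 to 1.09). The share of cells with a *Ccr3* UMI at equal depth was 11.2% (17.5% at full depth) with *Il1rl1* and 2.93% (5.08%) without. Summed macrophage and monocyte markers without *Ly6c2* and *Fcer1g* were 85.5 CPM with *Il1rl1* and 222 CPM without, and without cells of 2 or more marker UMIs of other cell types *Ccr4* was at 2.01, or at 1.97 where *Ly6c2* and *Fcer1g* count as markers. Averaging CPM over single cells gave 1.83.

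The hashtags name the tumor of few cells. The table holds UMIs of 4 tags, printed here because each tumor call rests on them.
B16_1: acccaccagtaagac
B16_2: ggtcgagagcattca
B16IL33_1: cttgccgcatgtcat
B16IL33_2: aaagcattcttcacg
They gave 554, 929, 102 and 145 UMIs in all. Of the 2609 Treg cells, 300 had tag UMIs of 1 tumor only, 268 of them from a single UMI. Cells with both tags of a tumor count under each tag below. B16 tags marked 245 Treg cells, with a median of 3401 UMIs, and B16-IL33 tags 55, with a median of 2467. *Il1rl1* stood at 18.1 CPM under the former and 166 CPM under the latter, a ratio of 9.17 (4.90 to 17.7).

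*Cxcr3* was lower in Treg cells of B16-IL33 tags. It stood at 168 CPM (127 to 219) for tag B16_1, 185 CPM (154 to 222) for B16_2, 99.6 CPM (32.3 to 232) for B16IL33_1 and 61.1 CPM (26.4 to 120) for B16IL33_2. Both B16-IL33 tags were below both B16 tags, from 5 and 8 UMIs, and the interval of B16IL33_1 overlapped those of the B16 tags. Over both tags of a tumor the ratio was 0.39 (0.20 to 0.69). It was 0.59 with the tags numbered 1 alone and 0.33 with those numbered 2, and 0.38 among Treg cells without *Il1rl1*.

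*Cxcr4* stood at 67.4 CPM (42.2 to 102) for B16_1, 42.0 CPM (27.7 to 61.2) for B16_2, 79.7 CPM (21.7 to 204) for B16IL33_1 and 122 CPM (69.9 to 199) for B16IL33_2. The ratio of B16-IL33 over B16 tags was 2.16 (1.22 to 3.72), and it was 1.18 with the tags numbered 1 alone, 2.91 with those numbered 2 and 1.89 among Treg cells without *Il1rl1*. *Ccr8* stood at 126 CPM (90.1 to 170), 154 CPM (125 to 188), 259 CPM (138 to 443) and 267 CPM (186 to 372) for the 4 tags in that order. Its ratio was 1.79 (1.26 to 2.51), 2.06 with the tags numbered 1 and 1.73 with those numbered 2.

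*Ccr7* was at 0.32 (0.06 to 1.01), from 3 UMIs under B16-IL33 tags, all of tag B16IL33_2. It was at 0.42 with the tags numbered 2, whereas with those numbered 1 tag B16IL33_1 held 0 UMIs, which set at the floor of 3 counts gives 1.5 and no direction. *Ccr2* did not differ beyond counting error at 1.07 (0.86 to 1.31). In all, *Cxcr4* was past 2-fold higher, as were 2.58% of 3019 genes, and *Cxcr3* and *Ccr7* were lower, as were 4.64%. *Ccr3*, *Ccr4* and *Cx3cr1* had under 50 UMIs, *Ccr4* with 0 UMIs in the 55 cells of B16-IL33 tags, which allows a share of up to 5.45%. Summed macrophage and monocyte markers were 929 CPM under B16 and 756 CPM under B16-IL33 tags, or 659 and 387 CPM without *Ly6c2* and *Fcer1g*, and without cells of 2 or more marker UMIs of other cell types the ratio was 0.40 for *Cxcr3* and 2.53 for *Cxcr4*, or 0.42 and 2.41 where *Ly6c2* and *Fcer1g* count. With every cell thinned to 1500 UMIs it was 0.39 for *Cxcr3*, 2.22 for *Cxcr4* and 2.11 for *Ccr8*. Among CD8+ T cells, 103 had B16 and 19 B16-IL33 tags, and *Cxcr3* stood at 196 and 95 CPM, a ratio of 0.48 (0.20 to 1.00). Among Tconv cells, 164 and 17, the ratio was 1.33 (0.55 to 2.78).

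**Figure D3:**
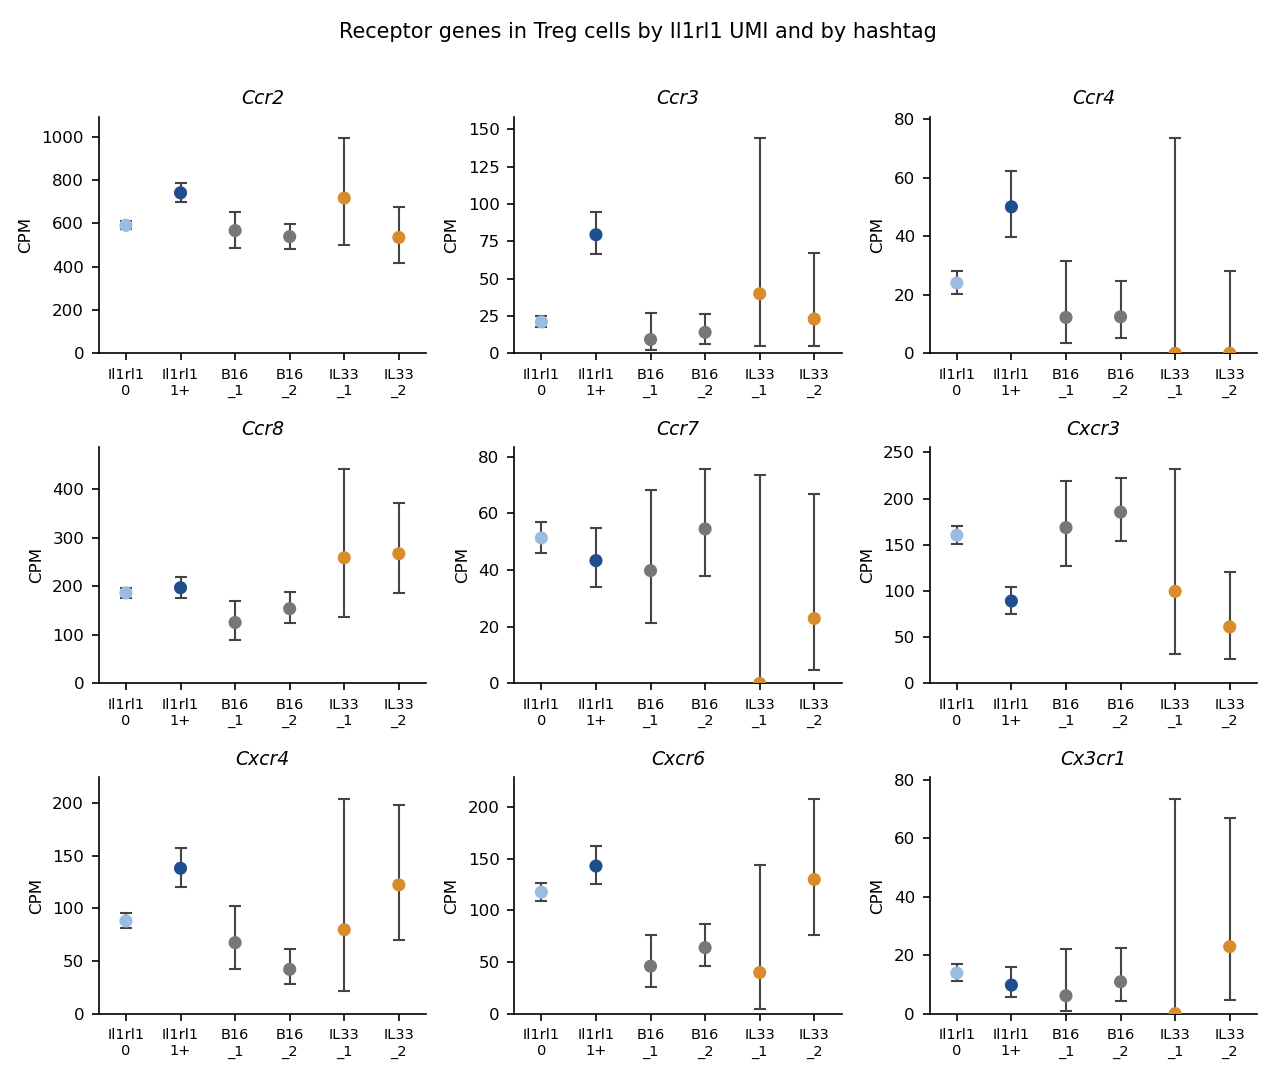
Level of each receptor gene in CPM (linear axes from 0) in Treg cells without and with an *Il1rl1* UMI (light and dark blue) and under each of the 4 hashtags (grey for B16, orange for B16-IL33), with exact Poisson 95% intervals. *Ccr3* and *Ccr4* are higher with *Il1rl1* at 79.4 and 50.1 CPM, and the intervals of the B16-IL33 tags are wide because they hold 18 and 37 cells.

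Clones were taken as the deposited clonotypes, and a clone was called expanded if at least 2 kept cells of a lineage shared it. Cells of 1 clone share their source and are not independent. *Ccr7* was the receptor lower in expanded clones of every lineage. In CD8+ T cells it stood at 24 CPM in the 200 cells of 73 expanded clones and 85.9 CPM in the 721 cells of single clones, a ratio of 0.28 (0.17 to 0.43). In Treg cells it stood at 11.8 CPM in 98 cells of 46 expanded clones and 54.8 CPM in 1607 cells, a ratio of 0.21 (0.06 to 0.56) from 4 UMIs. In Tconv cells it stood at 13.5 CPM in 63 cells of 27 expanded clones and 123 CPM in 1117 cells, a ratio of 0.11 (0.02 to 0.32) from 3 UMIs. The direction and the 2-fold mark held under all 11, 12 and 11 alternatives run for these ratios.

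Other receptors differed by lineage. In CD8+ T cells, *Cxcr6* stood at 413 CPM in expanded and 244 CPM in single clones, a ratio of 1.70 (1.5 to 1.92), and *Cxcr4* at 35.5 and 69.6 CPM, a ratio of 0.51 (0.34 to 0.73). *Cx3cr1* stood at 50.1 and 28.2 CPM, a ratio of 1.78 (1.22 to 2.55). It turned to 0.69 without cells of 2 or more marker UMIs of other cell types, which kept 26 of 200 expanded and 282 of 721 single cells. Where *Ly6c2* and *Fcer1g* do not count it stayed at 1.71, with 166 and 683 cells. In Tconv cells *Cxcr6* stood at 320 and 176 CPM, a ratio of 1.82 (1.4 to 2.33), and *Cxcr3* at 266 and 155 CPM, a ratio of 1.71 (1.29 to 2.24). In Treg cells *Cxcr6* was at 1.08 (0.78 to 1.47), whereas *Ccr8* stood at 291 and 192 CPM, a ratio of 1.52 (1.22 to 1.86). *Ccr4* in Treg cells was at 0.40 (0.11 to 1.05), also from 4 UMIs. *Ccr2* lay between 1.09 and 1.23 in the 3 lineages.

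Receptors past 2-fold higher in expanded clones numbered 0 in each lineage, beside 0.828% of 6282 genes in CD8+ T cells, 2.14% of 7678 in Treg cells and 3.8% of 6293 in Tconv cells. Those lower numbered 1, 2 and 1, beside 2.64%, 6.6% and 8.25%. Median depth was 4402.5 UMIs in expanded and 3980 in single clones of CD8+ T cells, 3047 and 3315 in Treg cells and 2976 and 2796 in Tconv cells.

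**Figure D4:**
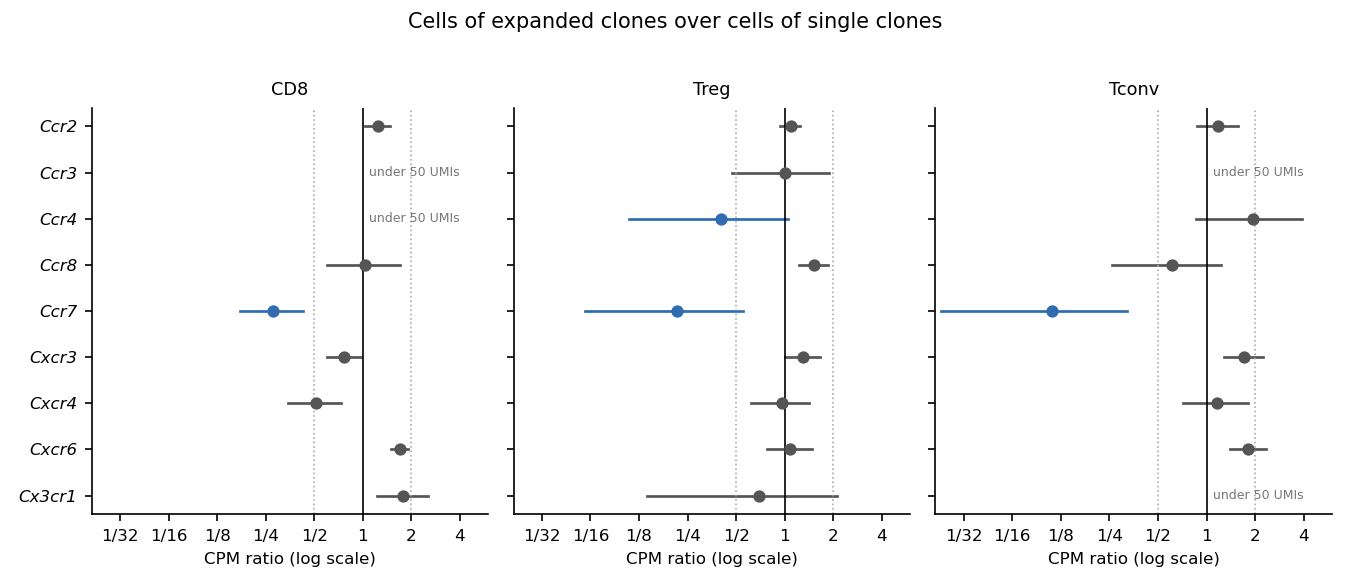
CPM ratio of each receptor gene in cells of expanded clones over cells of single clones (log axis, line at 1, dotted lines at 2-fold) in CD8+, Treg and Tconv cells, with exact conditional binomial 95% intervals. *Ccr7* lies left of 1/2 in every panel, at 0.28, 0.21 and 0.11, and *Cxcr6* lies right of 1 in CD8+ and Tconv cells.

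At full depth, no UMI of any of the 9 receptors was found in 17.1% of CD8+, 10.1% of Treg and 20.8% of Tconv cells. The median depths of these groups differ, at 3462.5, 2780 and 2498 UMIs. A Treg cell held 1.3 of the 9 on average at equal depth (1.96 at full depth), a Tconv cell 0.92 (1.42) and a CD8+ T cell 0.90 (1.60). Treg cells with *Il1rl1* held 1.47 (2.25) and those without 1.25 (1.89). Among combinations, counted at full depth, *Ccr2* alone was the most frequent in Treg cells, found in 371 of them (14.2%). It was followed by *Ccr2* with *Cxcr3* in 184 and *Ccr2* with *Ccr8* in 172. *Cxcr6* alone led in CD8+ T cells, in 144 (11.4%), before *Ccr2* with *Cxcr6* in 104. *Ccr7* alone led in Tconv cells, in 175 (9.89%).

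Pairs of receptors in the same cell were set against the product of their shares within a lineage, at equal depth, for the pairs with at least 5 cells under that product among the 36. In Tconv cells *Ccr7* was found apart from several receptors of activated cells. It met *Cxcr6* in 0.27 (0.13 to 0.50) of the product, *Ccr2* in 0.28 (0.14 to 0.51), *Cxcr3* in 0.40 (0.22 to 0.66) and *Ccr8* in 0.43 (0.15 to 0.99). The interval of *Ccr7* with *Ccr4* held 1, at 0.68 (0.16 to 1.83). At full depth 31 of 309 *Ccr7*-positive Tconv cells, or 10.0%, also held *Cxcr6*. With *Cxcr4*, in contrast, *Ccr7* was found as often as the product, at 1.00.

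In CD8+ T cells *Ccr7* met *Cx3cr1* in 0.09 of the product, from 3 cells at full depth, *Ccr2* in 0.35 (0.13 to 0.73) and *Cxcr6* in 0.39 (0.20 to 0.70). With *Cxcr3* the interval held 1, at 0.69 (0.34 to 1.26). In Treg cells the pair of *Ccr2* and *Ccr7* stood at 0.62 (0.42 to 0.87), and 53.2% of *Ccr7*-positive Treg cells still held *Ccr2* at full depth, against 11.7% of *Ccr7*-positive Tconv cells. Intervals held 1 for *Ccr7* in Treg cells with *Ccr8*, at 0.79 (0.45 to 1.28), *Cxcr6*, at 0.61 (0.26 to 1.20), and *Cxcr3*, at 0.58 (0.28 to 1.06). *Ccr2* and *Cxcr6* exceeded the product in each lineage, at 1.52 (1.21 to 1.90) in Tconv, 1.35 (1.09 to 1.65) in CD8+ and 1.20 (1.03 to 1.38) in Treg cells. *Ccr2* and *Ccr8* were at 1.76 (1.19 to 2.50) in Tconv cells and 1.1 in Treg cells. Within Treg cells *Ccr3* exceeded the product with *Ccr2*, at 1.42 (1.11 to 1.78), and with *Cxcr4*, at 1.82 (1.13 to 2.75), and *Ccr8* did with *Cx3cr1*, at 1.87 (1.03 to 3.11). Split by *Il1rl1*, *Ccr3* with *Ccr2* was at 1.25 (0.89 to 1.70) with and 1.43 (1.00 to 1.98) without an *Il1rl1* UMI. *Ccr3* with *Cxcr4* was at 1.56 (0.81 to 2.70) and 1.72 (0.81 to 3.19) in these sets.

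**Figure D5:**
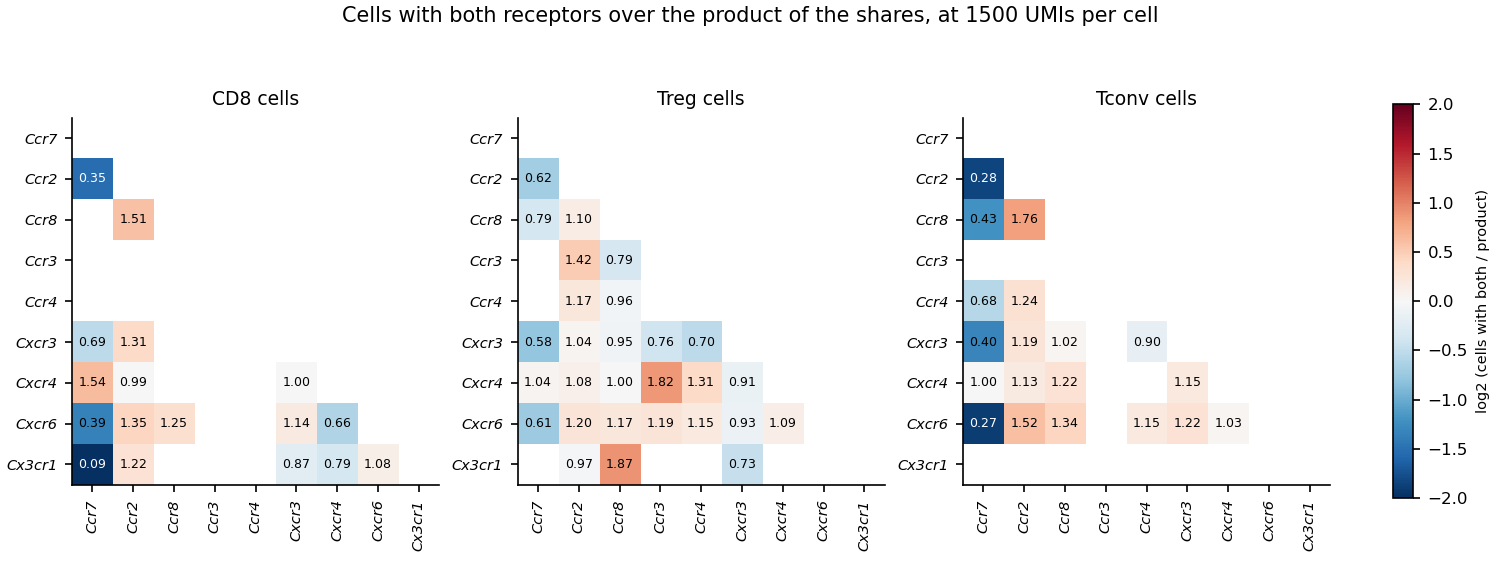
Number of cells with UMIs of both receptors over the number given by the product of the shares, printed in each square and coloured on a log2 scale, for CD8+, Treg and Tconv cells thinned to 1500 UMIs. Pairs with fewer than 5 cells under the product are blank, and the column of *Ccr7* is mostly blue in CD8+ and Tconv cells, down to 0.27 with *Cxcr6* in Tconv cells.

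For each receptor, genes were ranked by the lower bound of their CPM ratio between cells with and without a UMI of it, in the lineage of its highest level. Cells with a receptor UMI had a higher median depth than those without for every receptor but *Ccr3*. The shares of cells with a partner gene are at full depth, and depth was not made equal in them. Treg cells with *Ccr2* (1750 of 2609) held more *Gzmb*, a cytotoxic granule protease, at 1630 against 624 CPM and in 69.0% against 39.9% of cells, and more *Il17a*, at 4.67-fold (2.83 to 8.19) from 36 cells. *Cryba4* led the list at 12.4-fold (4.71 to 46.3) from 78 cells. Treg cells with *Ccr3* (195) held more *Gzmb*, at 1.80-fold (1.69 to 1.90), and *Ctla2a*, at 2.17-fold (1.83 to 2.56). The interferon-induced *Isg15* was at 1.86-fold (1.67 to 2.08), in 42.6% against 35.0% of cells, and 1 cell held 15.4% of its UMIs. The immunoglobulin gene *Igkc* ranked second, at 2.32-fold (1.86 to 2.88) and in 17.9% against 9.28% of cells. *Il1rl1* led, at 2.91-fold (2.46 to 3.42) and in 45.1% against 17.2% of cells, the comparison by *Il1rl1* above seen from the other gene.

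Treg cells with *Ccr4* (205) held more *Ccr3*, at 2.71-fold (1.98 to 3.66) and in 17.6% against 6.61% of cells. Treg cells with *Ccr8* (824) held more of the chemokine gene *Ccl4*, at 3.87-fold (3.62 to 4.14), *Nr4a3*, induced by TCR signals, at 3.56-fold (2.82 to 4.51), *Penk*, which encodes proenkephalin, at 2.85-fold (2.59 to 3.15), and the decoy receptor gene *Il1r2*, at 2.92-fold (2.52 to 3.39) and in 29.0% against 10.0% of cells. CD8+ T cells with *Cxcr6* (576) held more *Gzmc*, at 6.65-fold (5.46 to 8.18), and more *Havcr2*, which encodes the checkpoint receptor TIM-3, at 5.18-fold (3.71 to 7.40) and in 25.9% against 4.97% of cells. Their median depth was 4253.5 UMIs, against 2977.5 in the 684 without. CD8+ T cells with *Cx3cr1* (121) held more *Gzma*, at 3.74-fold (3.50 to 3.99) and in 50.4% against 24.9% of cells, *Klrg1*, at 2.50-fold (1.88 to 3.28), and *Il18rap*, at 2.64-fold (2 to 3.46).

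Several leading ratios rested on few cells. Beside *Ccr7* in Tconv cells, *Hbb-bt*, *Hbb-bs*, *Hba-a1* and *Hba-a2*, which encode hemoglobin, led the list but came from 1 or 2 of 309 cells, whereas *Igfbp4* was in 130 of them, 42.1% against 4.66%, at 8.91-fold (7.50 to 10.6). Beside *Cxcr4* in Tconv cells the 5 leading genes were *H2-Eb1*, *H2-Ab1*, *H2-Aa*, *Lyz2* and *Tyrobp*, genes of antigen-presenting and myeloid cells, found in 10 to 22 of 342 cells. Among cells with a CD3 UMI and under 2 marker UMIs of other cell types their ratios were 0.81, 0.63, 0.98, 0.71 and 1.32, and *Neurl3*, at 2.05-fold, and *Rgs2*, a regulator of G protein signalling, at 1.90-fold, led instead. *Lyz2* led beside *Cx3cr1* in CD8+ T cells from 4 of 121 cells, and was at 0 UMIs in the *Cx3cr1*-positive cells of that set. *Gzma* stood at 3.87-fold there. *Il17a* beside *Cxcr3* in Tconv cells came from 5 of 523 cells.

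Of 14 other chemokine receptor genes, 4 had at least 50 UMIs in Treg and Tconv cells together. Higher past 2-fold in Treg cells were 3 of these, beside 4.4% of 9280 genes. Among the 3, *Ccrl2* was at 2.14 (1.77 to 2.61) and *Ccr1* at 2.22 (1.62 to 3.1). *Ccr6*, the receptor gene for Ccl20, was at 1.62 (1.20 to 2.20). All 4 were past 2-fold lower in CD8+ T cells than in Treg cells, beside 9.53% of 9288 genes. *Ccr6* was also past 2-fold higher in Treg cells with *Il1rl1*, at 51.9 against 12.1 CPM, a ratio of 4.30 (3.13 to 5.91). The other 3 were within 2-fold.

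Among 18 genes of adhesion, tissue exit and receptor signalling, 17 were counted between Treg and Tconv cells, 1 higher and 3 lower past 2-fold. Of 9280 genes, 4.4% were higher and 2.08% lower to that extent. *Itgae*, the integrin CD103 that holds T cells at epithelia, stood at 144 CPM in Treg, 41.2 CPM in Tconv and 11.5 CPM in CD8+ T cells. *S1pr1*, whose product guides exit into lymph, stood at 43.6 CPM in Treg, 113 CPM in Tconv and 60.6 CPM in CD8+ T cells. The integrin genes *Itga4* and *Itgb1* were lower in Treg than Tconv cells, at 0.37 (0.33 to 0.42) and 0.44 (0.41 to 0.47). The median ratio of the 17 was 1.11, beside 1.07 for all genes.

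Of 18 ligand genes, 10 were counted between Treg and Tconv cells, 1 higher and 1 lower past 2-fold, beside 4.4% and 2.08% of 9280 genes. *Ccl1*, a ligand of Ccr8, was the lower one, at 4.60 CPM in Treg, 17.9 CPM in Tconv and 38.2 CPM in CD8+ T cells. That is the reverse of the order of *Ccr8* in these groups, but the UMIs came from 11, 20 and 36 cells. Of the 38 *Ccl1* UMIs in Treg cells, 28 came from 1 cell. *Ccl8*, which encodes another ligand of Ccr8, did not show that order, at 50.8, 73.7 and 37.4 CPM in the same groups. *Ccl5* stood at 8655 CPM in CD8+ T cells, 1751 CPM in Tconv and 1103 CPM in Treg cells. *Ccl2* and *Ccl7*, which encode ligands of Ccr2 known from macrophages, were at 272 and 237 CPM in Treg cells of B16 tags and at 16.6 and 5.52 CPM, from 3 UMIs and 1 UMI, in those of B16-IL33 tags. The former came from 10 and 9 of 245 cells and the latter from 2 and 1 of 55, so that 4.08% and 3.64% of cells held *Ccl2*. The levels thus rest on few cells, with ratios of 0.06 (0.01 to 0.18) and 0.02 (0.00059 to 0.13). The macrophage and monocyte markers differ between the tags in the same direction, as given above.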

How the data were processed

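TCR-β+ cells of 1 pool were read as 10x 5′ gene expression, hashtag and TCR libraries. The authors deposited raw UMI counts per gene and barcode (matrix header: Cell Ranger 3.1.0, human and mouse mm10 reference; submitters' notes: Cell Ranger 6.1.1), raw counts per hashtag and barcode, and filtered TCR contigs with UMI counts and clonotypes. Only mouse genes were used. Gene identifiers were matched to GENCODE vM21 (30934 of 31053).

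Cells were kept at 200 to 2500 genes and under 5% mitochondrial UMIs, and no doublet caller was run; 428 kept cells had 2 or more productive beta chains, and 343 held both CD8 and *Foxp3* UMIs. A tumor was given to cells whose tag UMIs, 1 or more, all named that tumor (939 kept cells, 849 with 1 tag UMI). Depth ranged from 254 to 14063 UMIs per kept cell. UMIs were summed per group. Equal-depth shares are the exact expectation after thinning to 1500 UMIs. The floor for a count of 0 is 3 counts. Intervals (95%) came from SciPy 1.17.1 and cover counting error only. The ratio code was tested on simulated data. Named genes were the 9 members, lists of receptors, ligands and trafficking genes, and the 5 genes with the highest lower bound of their ratio beside each member (at least 50 UMIs). The members and lists were chosen with earlier results of these data known. Values of 2 genes of these lists are not reported here.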

Additional observations from a re-analysis of the deposited data

How the results depend on the processing

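No paired analysis was possible because there is 1 pool and the sources used here do not say what the numbers shared by the tag names stand for. The alternatives without cells of 2 or more marker UMIs in which *Ly6c2* and *Fcer1g* do not count, with Treg cells without *Il1rl1* only, with Treg cells without CD8 or *Zbtb16* UMIs and Tconv cells without *Zbtb16* UMIs, and with partner genes in cells of low marker UMIs were chosen after seeing the data. Of the counts over all members (past 2-fold, by lineage and of co-detected pairs), 207 stayed within 1.5 times the reported count and 39 did not. Of single values, 1208 stayed within their counting interval, 137 moved and 14 turned direction.

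The causes of these shifts were not tested. For CD8 over Tconv cells, 5 receptors were lower with no upper gene limit, and 1 was without cells of 2 or more marker UMIs or with Tconv cells lacking *Il2ra* and *Ikzf2* UMIs, where *Ccr2* turned to 1.19. For CD8 over Treg cells 1 was higher in place of 2 without cells of marker UMIs, where *Ly6c2* counts as a marker, and that was *Ccr7*, with *Cx3cr1* and *Cxcr6* lost, and *Ccr7* turned to 0.94 with no upper gene limit. For *Zbtb16*-positive over Tconv cells 1 was lower in place of 2 with a CD3 UMI, without cells of 2 beta chains, with a TCR chain, with Tconv cells lacking *Il2ra* and *Ikzf2*, after thinning, and without marker cells by the added rule. There *Ccr2* turned to 1.23 and *Ccr8* to 1.21 against Tconv cells lacking *Il2ra* and *Ikzf2*, and with invariant cells alone *Ccr8* turned to 1.51 and *Cxcr6* to 0.87. For *Il1rl1*, 1 in place of 2 was higher without marker cells and by the mean of each cell's CPM, and 1 in place of 0 was lower at 2 *Il1rl1* UMIs. For the tags, 2 in place of 1 were higher with no upper gene limit, without cells of 2 beta chains and after thinning, and 0 were at a mitochondrial limit of 10%, with a TCR chain and without *Il1rl1*. Under 8 of the alternatives 1 in place of 2 was lower, and 0 was with the tags numbered 1. For clones, 1 in place of 0 was higher in CD8+ T cells by the mean of each cell's CPM and at 3 cells per clone, and 2 in place of 1 were lower at a mitochondrial limit of 10%. In Treg clones 1 in place of 2 was lower at 2 *Foxp3* UMIs and at 3 cells. In Tconv clones 1 in place of 0 was higher with no upper gene limit, at a mitochondrial limit of 10%, after thinning and at 3 cells, and 2 were without marker cells by either rule. Without marker cells *Cxcr3* turned to 1.02 and *Cx3cr1* to 0.69 in CD8+ clones, with 26 expanded and 282 single cells left, and *Cx3cr1* was at 1.71 by the added rule. Among partner genes in cells of low marker UMIs, *H2-Eb1* turned to 0.47 beside *Cxcr3* and 0.81 beside *Cxcr4*, *H2-Ab1* to 0.63, *H2-Aa* to 0.98 and *Lyz2* to 0.71 beside *Cxcr4*, and *Lyz2* to 0 beside *Cx3cr1*. Depth limits *Ccr3*, *Ccr4* and *Cx3cr1* in *Zbtb16*-positive cells and all ratios between tags.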

Other observations

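The cells that fell in no lineage group, 3380 of 9078, also held the 9 receptors. *Ccr7* was at 128 CPM (121 to 136) in them and *Cxcr4* at 120 CPM (113 to 128), *Ccr2* at 275 CPM (264 to 287) and *Ccr8* at 75.2 CPM (69.3 to 81.4). *Cxcr6* stood at 137 CPM (129 to 145) and *Ccr3* at 10.2 CPM (8.08 to 12.6). Their median depth of 2006 UMIs was the lowest of the groups, and the summed macrophage and monocyte markers without *Ly6c2* and *Fcer1g* were 1216 CPM, against between 195 and 262 CPM in the 4 groups, and how many cell types these values mix was not tested.

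*Klf2*, which encodes a factor of naive and recirculating T cells, was past 2-fold higher in Treg cells of B16-IL33 tags, at 685 against 334 CPM, a ratio of 2.05 (1.65 to 2.53). In CD8+ T cells of expanded clones *Ccl1* stood at 95 CPM, against 18.8 CPM in single clones, a ratio of 5.05 (3.61 to 7.12). Beside *Cxcr6* in CD8+ T cells *Ccl1* was 7.59-fold higher (4.77 to 12.7), but from 28 of 576 cells, of which 1 cell held 20.2% of the UMIs.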
